A study of Mus musculus with 6 samples.

Results

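The genes described here are the mouse zinc finger genes whose symbol is *Zfp* followed by a number of 3 digits, from 500 upward. They were taken by symbol alone, and the gene table of this series listed 165 of them among 16123 genes. The lowest numbered of these genes were *Zfp503* and *Zfp507*, with means of 33.8 and 77.6 normalized reads, and the highest numbered *Zfp* genes below the limit were *Zfp488* and *Zfp493*, with 62.3 and 3.32. The series compared liver RNA of WT mice of the strain C57BL/6Rj with that of *Txndc5*-deficient (KO) mice, C57BL/6JRj-*Txndc5*<em2Mdnp>/Ciba, in which genome editing removed exon 3 of *Txndc5*, a disulfide isomerase of the endoplasmic reticulum. All KO mice descended from 1 founder male. According to the paper, the males of both genotypes came from crosses of heterozygous mice. All animals were 2-month-old males that received a purified chow diet for 4 weeks and fasted for 16 hours. Each genotype gave 3 libraries of polyadenylated RNA, and each library was made from the pooled RNA of 3 mice.

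C2H2 zinc finger proteins form a very large family of DNA-binding proteins in mammals. Each finger folds around a zinc ion held by a pair of cysteines and a pair of histidines, and successive fingers are joined by a short linker. Many members also carry a KRAB domain, which binds the corepressor TRIM28 and through it recruits histone methyltransferases and heterochromatin proteins to silence transposable elements and nearby genes. The numbers in the symbols give the order of naming, not a shared function.

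The deposited table held 1 expression value per gene and genotype on the scale of normalized reads (reads divided by the size factor of the library). For weakly expressed genes, the reads of the 6 libraries were recovered from these values as the set of whole numbers that yields them. The recovered libraries carried their genotype but no pool number, and were numbered within a genotype by falling size factor. Clean reads per library ranged from 44040160 to 46050030, whereas the recovered size factors, which scale the libraries to a common depth, ran from 1.31 in KO library 1 and 1.22 in WT library 1 to 0.886 in KO library 3 and 0.818 in WT library 3. *Txndc5* itself was at 2697 normalized reads in the authors' value for WT and at 90.8 for KO. The hepatocyte markers, of which 3 of 6 were higher in KO, summed to 2398231 normalized reads in WT and 2248713 in KO. Among them *Apoa1* was at 667133 in WT and 505509 in KO, and *Alb* at 1329546 and 1332576. The red cell markers, all 5 of them higher in KO, summed to 118783 and 180301. Kupffer cell markers, of which 4 of 5 were higher in KO, summed to 1986 and 2335, and lymphocyte markers, of which 4 of 4 were lower in KO, to 59.5 and 43.6. Their part in the results below was not tested. Reads recovered for KO library 1 and WT library 1 stood apart from those of the other libraries in most of the genes described, so the comparisons are also given without both.

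GENCODE M21 on GRCm38, the same build as the mm10 of the submitters' processing notes, gave a coding sequence for 162 of the 165 genes. The others, *Zfp572*, *Zfp783* and *Zfp939*, were annotated as transcribed pseudogenes. A KRAB A box was found in 73 of the 162 proteins (45.1%). The number of fingers had a median of 10 and reached 33 in *Zfp619*, whereas in 5 proteins, those of *Zfp503*, *Zfp703*, *Zfp750*, *Zfp781* and *Zfp839*, no finger matched the pattern searched. Chromosome 7 held 47 of the genes, chromosome 17 held 22, chromosome 8 held 16 and chromosome 13 held 11. The GC content of the transcripts ranged from 34.9% to 68.7% with a median of 45.9%, against a median of 50.5% over all genes with a value.

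The same protein motif was written in DNA of very different base composition. A finger with its linker spans 84 bases, and the first such stretch within a single exon was read in 107 of the genes, with a GC content from 29.8% to 71.4% and a median of 42.9%. The stretches below are shown for the 3 genes highest and 2 of the 3 genes lowest in library 1 against the other libraries, among tested genes with such a stretch, because this ratio turned out to vary with GC content. Capitals mark the codons of the zinc-binding cysteines and histidines. Each lies within a coding exon and is given on the coding strand of GRCm38, first the 3 highest (*Zfp715*, minus strand, chr7:43299128-43299211; *Zfp932*, plus strand, chr5:110008837-110008920; *Zfp943*, plus strand, chr17:21992478-21992561), then 2 of the lowest (*Zfp689*, minus strand, chr7:127444755-127444838; *Zfp764*, minus strand, chr7:127405415-127405498).
Zfp715: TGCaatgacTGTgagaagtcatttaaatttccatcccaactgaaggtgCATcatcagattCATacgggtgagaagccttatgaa
Zfp932: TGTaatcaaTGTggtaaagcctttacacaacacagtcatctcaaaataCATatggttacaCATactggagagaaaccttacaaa
Zfp943: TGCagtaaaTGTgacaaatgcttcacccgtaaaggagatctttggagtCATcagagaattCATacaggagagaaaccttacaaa
Zfp689: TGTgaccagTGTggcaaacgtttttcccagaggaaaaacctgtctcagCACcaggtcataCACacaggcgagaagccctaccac
Zfp764: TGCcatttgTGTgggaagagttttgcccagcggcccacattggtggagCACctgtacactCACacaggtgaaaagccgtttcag
In these stretches the GC content was 40.5% in *Zfp715*, 34.5% in *Zfp932* and 39.3% in *Zfp943*, against 52.4% in *Zfp689* and 53.6% in *Zfp764*. Of the codons in capitals, only that of the second cysteine, TGT, was the same in all 5. The first cysteine was TGC or TGT, and both histidines were CAT in the 3 highest genes and CAC in the 2 lowest. Bases between these codons differed as well.

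The *Zfp* genes were expressed weakly in liver. Their median level was 5.71 normalized reads per kilobase of transcript, against 21.1 over all 16123 genes. Coding members without a KRAB A box had a median of 14.7 per kilobase (n = 89) and those with it a median of 2.32 (n = 73), and the summed value over the 6 libraries fell below 60 in 21 of the former and 37 of the latter. Among *Zfp* genes numbered under 500 (n = 157) the median was 5.68 per kilobase, and among *Zkscan*, *Zscan* and *Zbtb* genes (n = 52) it was 19.2. In bulk liver RNA, fewer cells of a type and less RNA per cell cannot be told apart.

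**Figure D1:**
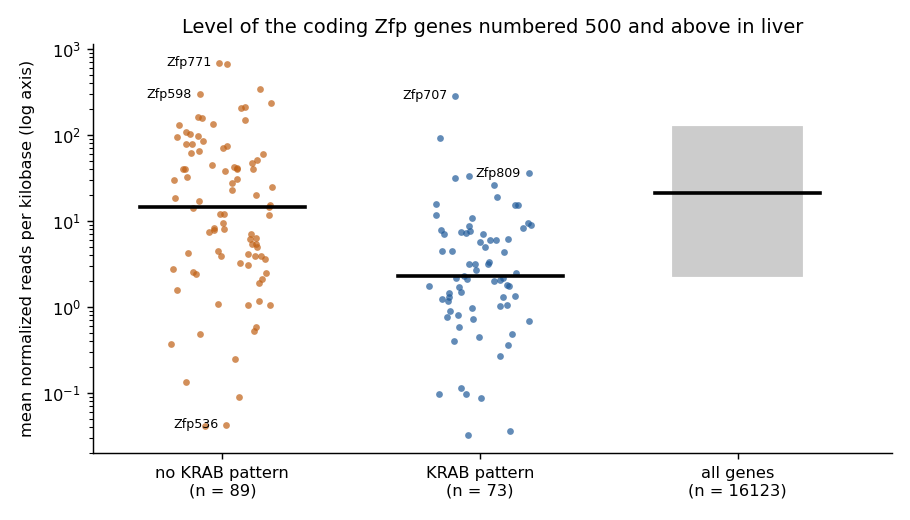
Mean normalized reads per kilobase of transcript (log axis) for each coding *Zfp* gene numbered 500 and above, split by presence of a KRAB A box. Each point is a gene, black lines are medians, and the gray box spans the quartiles of all 16123 genes, from 2.27 to 124 per kilobase. Most of the genes with a KRAB A box lie in the lower part of the range, with *Zfp707* as their highest at 286.

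At the upper end, *Zfp771* reached 690 normalized reads per kilobase, *Zfp524* 656, *Zfp768* 344, *Zfp598* 297 and *Zfp707* 286. *Zfp598* encodes the ubiquitin ligase that marks collided ribosomes. The reads of these genes could not be resolved into libraries, and only the authors' value per genotype is available for them. It was 859 in WT and 837 in KO for *Zfp771*, 717 and 734 for *Zfp524*, and 992 and 984 for *Zfp598*. *Zfp768* was at 801 and 760, and *Zfp707* at 571 and 467. These values have no replicate error. At the lower end of the genes with a summed value of 60 or more were *Zfp563* with 1.77 per kilobase, *Zfp719* with 2.11 and *Zfp626* with 2.32.

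By summed normalized reads, the 165 genes fell into 4 sets. In 61 the sum was below 60, in 57 it lay between 60 and 400, in 12 it lay above 400 with the reads still resolved, and in 35 the reads were not resolved. Only the 57 genes between 60 and 400 entered the test of KO against WT, so the results below describe the moderately weak members and not all 165. *Zfp758* with a sum of 59.3 was the nearest left out, and *Zfp958* with 62.5 the nearest taken in.

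No difference between KO and WT passed the test in the 57 *Zfp* genes. With limma on log2(normalized reads + 1) over 3325 genes, 0 of 57 had an adjusted p under 0.05, where the share over all genes was 0.0301% (1 gene). An unadjusted p under 0.05 was found for 3 of 57, all lower in KO, against 1.92% of all genes. The adjusted p of limma was 0.999 for each of the 57 genes. The standard errors of the log2 differences ranged from 0.39 to 1.22. KO and WT libraries were separated without overlap in 0 of 57, and in 5.68% of all genes tested.

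*Zfp800*, with 6 fingers and no KRAB A box (chromosome 6, 28239927 to 28398005), had the smallest p. Its normalized reads were 13.7, 8.69 and 1.13 in KO libraries 1 to 3 and 53.9, 12.5 and 26.9 in WT libraries 1 to 3. The genotypes overlapped only between KO library 1 and WT library 2, and the means were 7.84 ± 6.34 in KO and 31.1 ± 21.01 in WT (SD, n = 3). The log2 difference was -2.03 (SE 0.78, unadjusted limma p = 0.0281), and the exact permutation test over the 6 libraries gave a two-sided p of 0.2, where the smallest possible is 0.1.

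*Zfp748*, a KRAB gene with 23 fingers (chromosome 13, 67538641 to 67553830), was at 15.2, 1.93 and 0 normalized reads in KO and at 32.7, 15.9 and 8.56 in WT. KO library 1 lay above WT library 3, and KO library 3 held no read. The log2 difference was -2.28 (SE 0.93, unadjusted limma p = 0.0367), with a two-sided p of 0.2 in the exact permutation test. *Zfp748* overlaps the gene *9430065F17Rik* on the opposite strand over 576 bases, and reads there cannot be assigned because the strand of counting is not stated.

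*Zfp810*, a KRAB gene with 10 fingers (chromosome 9, 22276748 to 22307648), was at 14.5, 10.6 and 9.03 in KO and at 44.9, 28.4 and 13.5 in WT. Only the lowest WT library fell within the KO range. The log2 difference was -1.15 (SE 0.50, unadjusted limma p = 0.0488), again with a two-sided p of 0.2 in the exact permutation test. In *Zfp800*, *Zfp748* and *Zfp810* alike, library 1 was the highest of its genotype in both KO and WT.

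**Figure D2:**
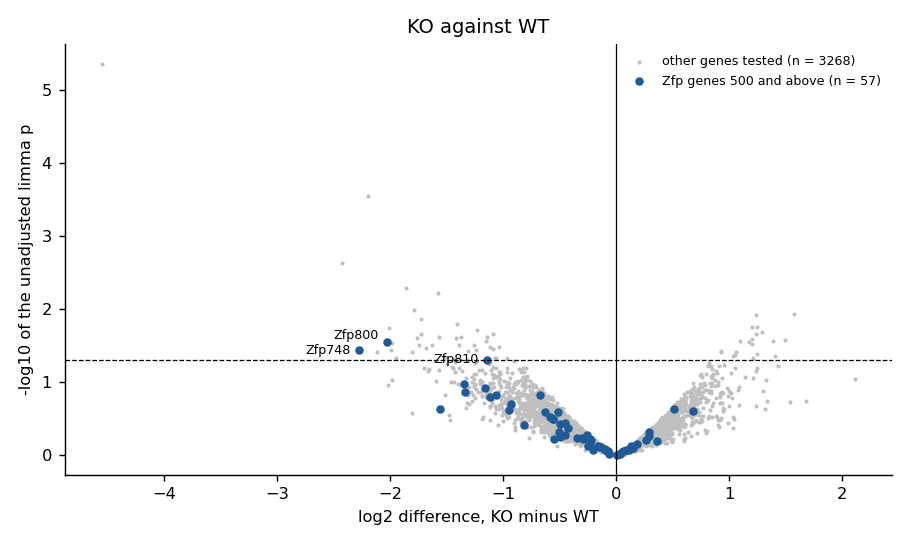
Log2 difference KO minus WT (horizontal) and -log10 of the unadjusted limma p (vertical) for 57 *Zfp* genes (blue) and 3268 other tested genes (gray). The dashed line marks an unadjusted p of 0.05. *Zfp800*, *Zfp748* and *Zfp810* lie above it on the side lower in KO, and the other 54 lie below it.

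Among the remaining genes with a small p or a large difference, library 1 was the highest WT library in each gene lower in KO given here, and the highest KO library in all but *Zfp945* and *Zfp950*. *Zfp945* was at 10.7, 12.6 and 2.26 normalized reads in KO and 46.5, 20.5 and 7.34 in WT, with a log2 difference of -1.35 (SE 0.75). *Zfp825* was at 77.0, 21.2 and 14.7 in KO and 113, 75.1 and 34.2 in WT, with a log2 difference of -1.16 (SE 0.68). *Zfp961* was at 42.7, 30.9 and 21.5 in KO and 64.5, 47.8 and 39.1 in WT, with a log2 difference of -0.68 (SE 0.43). In each of these 3 genes a KO library lay above the lowest WT library. *Zfp943*, *Zfp946*, *Zfp770*, *Zfp950*, *Zfp644* and *Zfp715* had log2 differences from -0.93 to -1.56 with standard errors from 0.67 to 1.22. The largest differences in the other direction, chosen after the values were seen, were those of *Zfp647*, at 0.68 (SE 0.55), and *Zfp688*, at 0.51 (SE 0.40).

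As a set the members leaned to lower values in KO, by an amount that changed with the libraries used. The median log2 difference over the 57 genes was -0.26, against -0.07 over all genes tested. The mean log2 value was higher in KO in 16 of 57 (28.1%), against 43.5% of all genes. Without WT library 1 the median was 0.15 and 57.9% of the members were higher in KO, against 0.07 and 54.5% for all genes. It was -0.51 without KO library 1, -0.57 without WT library 3, -0.39 without WT library 2 and -0.12 without KO library 3, where all genes had -0.15, -0.16 and -0.11 in the first 3 of these and -0.0041 in the last. Without library 1 of both genotypes it was -0.16 with 35.1% higher, against -0.05 and 46.2% for all genes. With each library centred on its own median, the median of all genes moved from -0.07 to 0.06 and the members' from -0.26 to -0.13, and 54.9% of all genes and 35.1% of the members were then higher in KO. *Zfp* genes numbered under 500 gave a median of -0.24 (n = 67) and *Zkscan*, *Zscan* and *Zbtb* genes one of -0.13 (n = 22). Tested members with a KRAB A box had a median of -0.29 (n = 29) and those without one of -0.25 (n = 28).

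**Figure D3:**
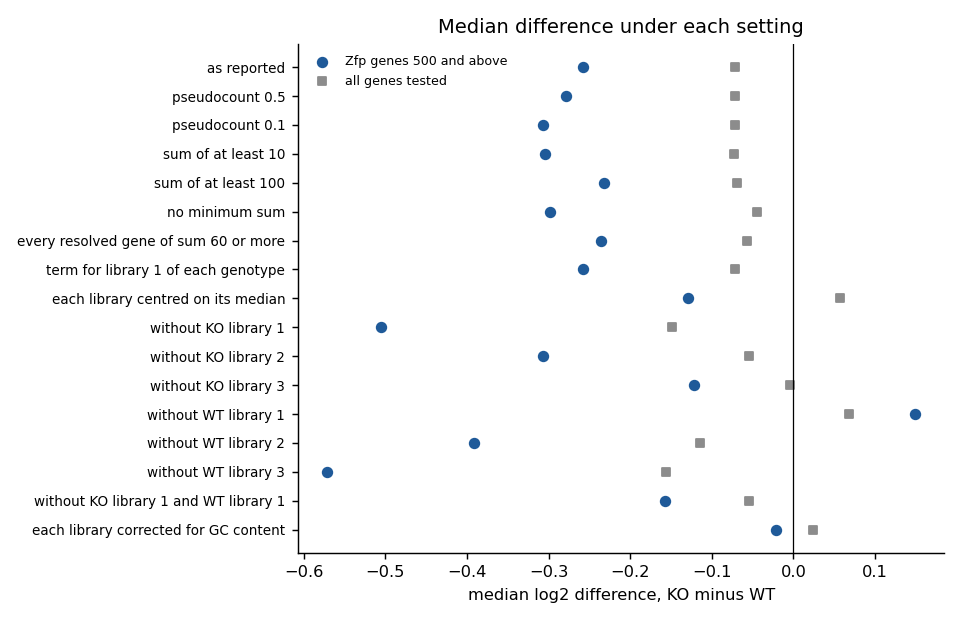
Median log2 difference KO minus WT over the tested *Zfp* genes (blue circles) and over all genes tested (gray squares) under each setting of the fit. The members' median is below 0 under each setting shown except without WT library 1, where it is 0.15, and lies at -0.02 after correction for GC content.

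Most members differed between the libraries of a genotype in the same way in KO and in WT. Library 1 was the highest of its genotype in both KO and WT in 37 of 57 members (64.9%), against 39.9% of all genes tested. The share was 59.7% in *Zfp* genes numbered under 500 and 72.7% in *Zkscan*, *Zscan* and *Zbtb* genes. The median log2 ratio of library 1 to the mean of the other libraries was 0.65 in KO and 1.23 in WT for the members, and 0.31 and 0.41 for all genes. Averaged over both genotypes it was 0.91 for the members, 0.73 for *Zfp* genes numbered under 500 and 1.02 for *Zkscan*, *Zscan* and *Zbtb* genes. With each library centred on its own median, it was 0.49 for the members and -0.07 for all genes. WT library 1 held the highest value of all 6 libraries in 36 of 57 members and KO library 1 in 7. These values are already divided by the size factors, which are largest in both library 1s. Before centring, the averaged ratio was 0.34 for all genes. The part of the scaling in the excess of library 1 was not tested. Over the 57 genes, KO libraries 1 to 3 gave 2406, 1403 and 999 reads, and WT libraries 1 to 3 gave 3408, 1386 and 1087. Divided by the size factors, the sums were 1833, 1355 and 1128 in KO and 2783, 1576 and 1329 in WT.

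*Zfp715*, a KRAB gene with 18 fingers (chromosome 7, 43296197 to 43313294), showed this most. It was at 25.1, 0 and 4.52 normalized reads in KO and at 69.4, 7.96 and 4.89 in WT, so library 1 was 11.1 times the mean of the others in KO and 10.8 times in WT. *Zfp932*, with 15 fingers, was at 17.5, 2.90 and 2.26 in KO and 35.9, 7.96 and 1.22 in WT, though 84.8% of its transcript aligned to *Gm15446* at up to 97.4% identity, so that its reads may be shared with that gene. *Zfp943* was at 22.1, 4.83 and 3.39 in KO and 63.7, 11.4 and 11.0 in WT. In all 3 genes libraries 2 and 3 of KO and WT lay within 1.22 to 11.4 normalized reads or at 0. Over these libraries alone KO lay below WT in *Zfp715* and *Zfp943*, and the genotypes overlapped in *Zfp932*. *Zfp748*, *Zfp597*, *Zfp644*, *Zfp654* and *Zfp960* completed the 8 genes with the highest ratios. *Zfp960* shares 98.8% of its bases with *Zfp97* over 2655 bases, which leaves its reads uncertain.

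At the other end, library 1 was the lowest. *Zfp580* (chromosome 7, 5051538 to 5053723) was at 22.9, 43.4 and 48.6 normalized reads in KO and at 28.6, 84.2 and 69.7 in WT, where library 1 was 0.497 and 0.371 times the mean of the others. *Zfp689* was at 38.9, 59.9 and 61.0 in KO and at 37.6, 60.3 and 83.2 in WT. *Zfp503* and *Zfp821* had the next lowest ratios. The transcripts of these 4 genes had GC contents of 66.1%, 53.4%, 58.9% and 57.1%, whereas those of *Zfp715*, *Zfp932* and *Zfp943* had 40.1%, 38.5% and 37.1%.

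**Figure D4:**
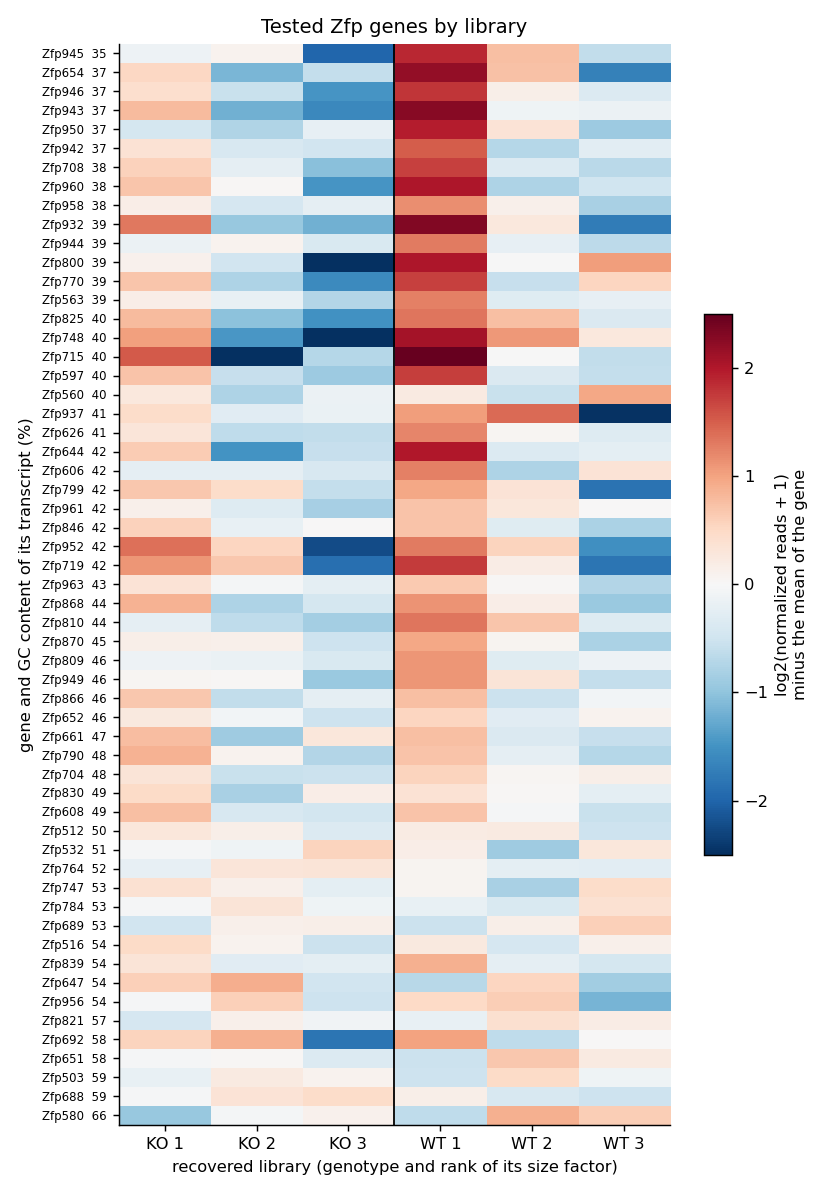
Log2(normalized reads + 1) of the 57 tested *Zfp* genes in the 6 recovered libraries, each row relative to its own mean, with rows ordered from the lowest GC content (35%, top) to the highest (66%, bottom). The column of WT library 1 is red over most of the upper rows, KO library 1 less so, and both turn pale or blue in the lowest rows.

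Across the 57 members the log2 ratio of library 1 to the others correlated with transcript GC content at Pearson's r = -0.77 and Spearman's rho = -0.76, a description over genes that share the same 6 libraries. Over 3240 other tested genes r was -0.64 and rho -0.67. In the 32 members with a GC content below 45%, the median log2 ratio was 1.04 in KO and 1.48 in WT, and library 1 was highest in both genotypes in 26 of them. In the 9 members from 45% to 50% the ratios were 0.87 and 1.03, with library 1 highest in both in 9. In the 16 members of 50% or more they were -0.16 and 0.20, with library 1 highest in both in 2. Other tested genes below 45% had 0.89 and 1.25, those from 45% to 50% had 0.40 and 0.54, and those of 50% or more -0.14 and -0.25. Library 1 was highest in both genotypes in 72.6%, 44.6% and 14.2% of these other genes, against 81.2%, 100% and 12.5% of the members. The members thus lay above the other genes in both genotypes below 45% and from 45% to 50%, which held only 9 of them. At 50% or more they did so in WT alone. GC content was not matched within the ranges. Its median was 40.1% in members and 42.2% in other genes below 45%, and 46.8% and 47.5% from 45% to 50%. These differences were not tested.

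**Figure D5:**
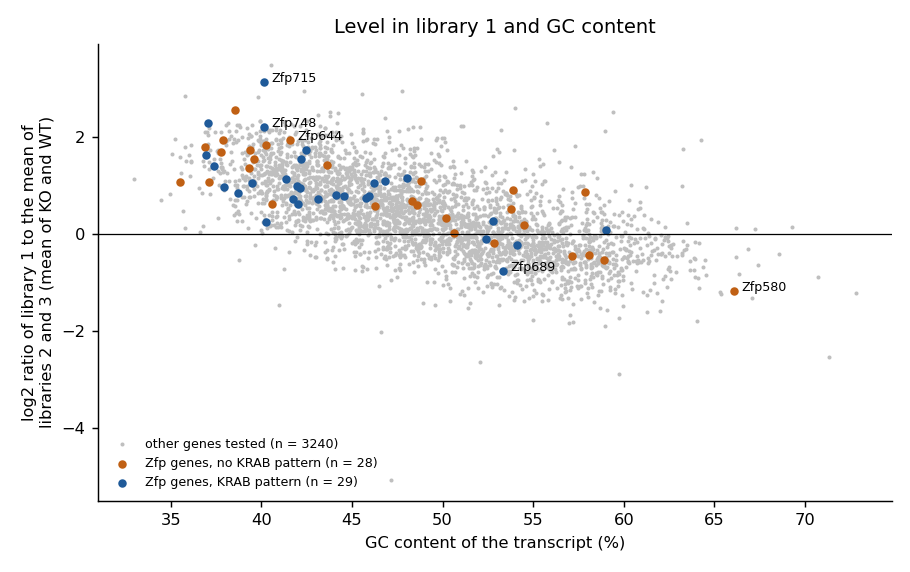
GC content of the transcript (horizontal, %) and the log2 ratio of library 1 to the mean of libraries 2 and 3, averaged over KO and WT (vertical), for tested *Zfp* genes with (blue) and without (orange) a KRAB A box and for other tested genes (gray). The ratio falls with GC content in both, among the *Zfp* genes from *Zfp715* at 3.12 to *Zfp580* at -1.19.

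The difference between KO and WT followed GC content as well. Its median over the members was -0.53 below a GC content of 45%, -0.10 from 45% to 50% and 0.05 at 50% or more, and the medians of the other tested genes in these ranges were -0.37, 0.02 and 0.04. The mean log2 value was higher in KO in 4 of 32, 2 of 9 and 10 of 16 members. These shares were 12.5%, 22.2% and 62.5%, against 22.1%, 51.8% and 53.5% of the other genes. Across the members the correlation of the log2 difference with GC content was r = 0.53 (rho = 0.64), and over the other genes it was r = 0.29 (rho = 0.30). With a correction of each library for GC content the members' median became -0.02 and that of all genes 0.02, and 28 of 57 members were higher in KO. The part of GC content in the difference between genotypes beyond this correction was not tested.

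Members with a described role were read in the same way. *Zfp809*, a KRAB protein that silences endogenous retroviruses, was at 48.8, 47.3 and 40.6 normalized reads in KO and at 116, 43.2 and 48.9 in WT. WT library 1 alone lay above the other 5, and the means were 45.6 ± 4.33 and 69.4 ± 40.4 (SD, n = 3), with a log2 difference of -0.46 (SE 0.47, adjusted p of limma 0.999). *Zfp568*, the KRAB protein that represses a placental transcript of *Igf2* in the embryo, was at 98.3, 82.1 and 42.9 in KO and at 134, 58.0 and 55.0 in WT. Its reads lay above the tested range but were resolved, and when such genes were taken into the fit its log2 difference was -0.10 (SE 0.50).

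*Zfp638*, a nuclear RNA-binding protein with a role in splicing, was the most uneven of the 12 resolved genes above a sum of 400. It was at 83.1, 16.4 and 9.03 normalized reads in KO and at 219, 38.7 and 50.1 in WT. The first KO library lay above WT libraries 2 and 3. Its log2 difference in the fit with all resolved genes was -1.64 (SE 0.88). In 7 of the 12 genes library 1 was the highest of its genotype in both, where the share over all genes between 60 and 400 was 39.9%. *Zfp653* and *Zfp775* were the genes among the 12 whose genotypes did not overlap, the former lower in KO (71.1 ± 4.27 against 95.3 ± 13.0) and the latter higher (77.4 ± 1.80 against 59.8 ± 12.6, SD, n = 3), with an adjusted p of limma of 0.999 for each. Over all resolved genes with a sum of 60 or more, 5.28% did not overlap, and 2.90% of the 69 members among them. Above a sum of 400, some reads were chosen among several fitting sets by nearness to the deposited ratio.

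*Zfp644*, a partner of the histone methyltransferases G9a and GLP, was at 45.7, 9.65 and 19.2 normalized reads in KO and at 119, 22.7 and 24.5 in WT, with a log2 difference of -0.95 (SE 0.75). *Zfp652*, a transcriptional repressor, was at 56.4, 45.4 and 32.7 in KO and 69.4, 38.7 and 50.1 in WT. *Zfp516*, an activator of the brown fat program, was at 80.8, 61.8 and 39.5 in KO and 68.6, 43.2 and 63.6 in WT. In all 3 the ranges of KO and WT overlapped. *Zfp830*, a nuclear protein needed for genome stability, was at 67.1, 27.0 and 54.2 in KO and 62.1, 48.9 and 40.4 in WT. *Zfp503*, a corepressor related to *Zfp703*, was at 29.0, 38.6 and 35.0 in KO and 22.9, 46.6 and 30.6 in WT, where the WT range held all 3 KO values. The log2 differences of *Zfp652*, *Zfp516*, *Zfp830* and *Zfp503* ran from -0.22 to 0.08 with standard errors from 0.42 to 0.46.

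For the 35 genes whose reads were not resolved, the authors' values gave no spread, and their ratio is a shrunken one. Of these, 10 were higher and 25 lower in KO. Their log2 ratios had a median of -0.07, and over all 7257 unresolved genes the median was -0.03 with 43.8% higher in KO. The ratio exceeded 0.5 in size in 1 gene, *Zfp871*, at 157 normalized reads in WT and 94.0 in KO, a KRAB gene with a GC content of 40.01%. *Zfp579*, *Zfp655*, *Zfp593* and *Zfp865* followed with log2 ratios of -0.48, -0.44, -0.38 and -0.37. *Zfp865* and the tested gene *Zfp784* overlap on opposite strands over 2042 bases, 94.8% of the transcript of *Zfp784* and 27.3% of that of *Zfp865*. Reads in the overlap cannot be assigned because the strand of counting is not stated. *Zfp593* overlaps *E130218I03Rik* on the opposite strand over 991 bases in the same way.

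Among unresolved genes with a described role, *Zfp609*, which works with the cohesin loader NIPBL, had 189 normalized reads in WT and 237 in KO. *Zfp622*, a factor of ribosome maturation, had 446 and 381. *Zfp703*, a corepressor, had 307 and 371, and *Zfp746*, the PARIS protein that represses the gene of PGC-1α, had 339 and 399. *Zfp750*, a regulator of epidermal differentiation, had 471 and 384. These values are the authors' means without an error.

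The 61 genes with a sum below 60 were close to the limit of detection. They held from 1 to 67 reads over the 6 libraries, with a median of 22, and 23 of them had a read in every library. Together they gave 356, 133 and 108 reads in KO libraries 1 to 3 and 653, 132 and 121 in WT libraries 1 to 3. Divided by the size factors, the sums were 271, 128 and 122 in KO and 533, 150 and 148 in WT. Library 1 was thus again the highest of each genotype. *Zfp521*, a regulator of adipocyte and neuron differentiation, had 6, 2 and 2 reads in KO and 4, 4 and 4 in WT. *Zfp827*, a protein of telomere chromatin, had 8, 4 and 7 in KO and 2, 3 and 1 in WT, a difference with no test in this range.

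In 9 of these genes the reads came from a single genotype, 6 of them from WT and 3 from KO, with at most 2 reads each. *Zfp536*, a repressor of neuron differentiation, had 1 read, in WT library 2. *Zfp541*, which acts in meiosis of spermatocytes, had 1 read, in KO library 3. At so few reads neither genotype can be said to lack them, since a count of 0 allows up to 3.

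For the corepressor through which KRAB proteins act and its partners, only the authors' value per genotype, without replicates, was available in most cases. *Trim28* was at 1378 normalized reads in WT and 1301 in KO, and *Setdb1*, its histone methyltransferase, at 154 and 167. All 30 genes of the TRIM28 corepressor and heterochromatin list were in the table. By the authors' values 10 were higher and 20 lower in KO, and the median of their log2 ratios was -0.05. Over all 7257 unresolved genes 43.8% were higher in KO, with a median of -0.03. Of the 6 genes of the list that entered the test, 0 had an adjusted p of limma under 0.05, against 0.0301% of all genes tested. An unadjusted p of limma under 0.05 was found for 1 of the 6, against 1.92% of all genes tested. That gene, *2810474O19Rik* (also named *Resf1*), assists in the silencing of retroelements by SETDB1. It had 60, 11 and 14 reads in KO and 254, 40 and 50 in WT, with a log2 difference of -2.01 (SE 0.70). The authors also reported *Resf1* lower in KO by RT-qPCR on liver RNA of individual mice. In 5 of the 6 tested genes library 1 was the highest of its genotype in both, against 39.9% of all genes tested. The nuclear RNAs *Malat1*, *Neat1*, *Meg3* and *Kcnq1ot1*, were all lower in KO by the authors' values, where the median of the log2 ratios was -0.81. Of these 4 RNAs the reads of *Meg3* were resolved, with 5, 0 and 0 reads in KO libraries 1 to 3 and 16, 0 and 0 in WT libraries 1 to 3. Their part in the members' values was not tested.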

How the data were processed

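Liver polyA RNA of 3 WT and 3 KO pools, each of 3 mice, was sequenced. The submitters' processing notes name HISAT2, StringTie, Cufflinks, GATK, Bowtie2 and RSEM and the build mm10; their roles, their versions and the strand of counting are not given in the sources used here. The authors deposited a table with an expression signal per genotype for 16123 genes, on the scale of reads divided by size factors, where the sum of the values of both genotypes is set by the mean over the 6 libraries and their ratio by a shrunken fold change. Counts of clean reads and the percent of ribosomal RNA (0.26% to 0.69%) were deposited per library by the authors. The columns of the authors' own comparison, which hold log2 fold changes and p-values, were not used, and neither were the splicing counts. No column of per-sample values was left out otherwise (0).

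Reads per library were recovered from the deposited values. Genes read once in a single library share that library's value of 1 read (at least 20 genes for each), and every combination of whole reads giving a sum of up to 600 was then tried, allowing for 2.5 times the rounding error. Where several sets fitted, a gene was resolved only if 1 set alone had a ratio of KO to WT near the deposited one. A single set fitted for 1415 of 1433 resolved genes with sums from 200 to 400. From 400 to 500 it was 372 of 520, and from 500 to 600 it was 103 of 265. Above 400 the recovered differences are thus partly tied to the deposited ratio. All 8081 genes up to a sum of 400 were resolved, among them 118 of the members, and the recovered ratio of the 2423 genes with a single solution and a sum over 150 correlated with that of the deposited values at r = 0.995 over genes. The recovered reads may be rounded estimated counts. They cannot be tied to pool numbers, and p-values measure the spread between pools. The recovered reads of the tested genes number 77135 to 177901 per library, a small part of the clean reads, and so the counting error of a gene with few reads is large. Count intervals and limits cover counting error only.

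limma 3.58.1 (R 4.3.3) was run without a covariate on log2(normalized reads + 1) for the 3325 genes with sums from 60 to 400, with Benjamini-Hochberg adjustment, after a test on simulated data. The planned design foresaw this branch for a table without library columns. Two-sided exact permutation tests used the 6 libraries. Protein features and GC contents came from GENCODE M21 (GRCm38), with fingers found as C-x(2,4)-C-x(12)-H-x(3,5)-H and KRAB A boxes as a pattern around the residues DV and W. Stretches of at least 150 bases with 97% identity to another gene were found with BLAST 2.17.0. Named genes are the 10 with the smallest p, the 10 with the largest difference, the 5 highest and 3 lowest per kilobase, the 8 highest and 4 lowest in library 1, the 5 unresolved genes with the largest ratio, and genes with a textbook role, of which *Zfp683* is not in the table. The members and lists were chosen with earlier results of these data known. Alternatives to the pseudocount, the limits of the sum, the scaling and the libraries used are given at the end. The correction for GC content (a lowess curve of span 0.3 per library) and the fit without library 1 of both genotypes were chosen after seeing the data. The finger sequence of 1 of the genes lowest in library 1 is not reported here.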

Additional observations from a re-analysis of the deposited data

How the results depend on the processing

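The number of members with an adjusted p of limma under 0.05 was 0 under all 16 alternatives, and none of the 425 values of named members under them was called. An unadjusted limma p under 0.05 was found for 6 of 98 members with sums of at least 10, against 2.98% of all genes. It was found for 9 of 118 with no minimum sum (3.30%). With a term for library 1 of each genotype it was found for 10 of 57 (7.31%). Of these 6, 9 and 10 members, 5, 8 and 10 were lower in KO. With 1 library left out, 0 of 57 had one without KO library 3 (0.902% of all genes) and without WT library 1 (3.64%). The count was 1 without KO library 2 (0.782%) and 1 without WT library 2 (2.11%). It was 6 without KO library 1 (4.60%) and 7 without WT library 3 (3.91%). A higher mean log2 value in KO was found for 30 members of 98 with sums of at least 10 (44.6% of all genes). It was found for 37 of 118 with no minimum (46.3%) and for 28 of 57 after correction for GC content (52.0%). When 1 library was left out, it was found for 9 to 33 of 57 (37.9% to 54.5%). Non-overlapping genotypes were found in 3 members with sums of at least 10 (6.21% of all genes), 5 with no minimum (5.21%), 2 with every resolved gene (5.28%), 4 with each library centred (7.25%), 0 to 14 with 1 library left out (10.6% to 19.97%), and 18 without library 1 of both genotypes (34.9%), where 2 libraries face 2. The median log2 difference ran from -0.57 (without WT library 3) to 0.15 (without WT library 1) with 1 library left out. With 0.5 times the tolerance, the reads of 3 members were not resolved.

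Of the log2 differences of named members, none of which was called, 30 of 425 changed sign. With each library centred, *Zfp719* was at 0.061 and *Zfp830* at 0.026. Without library 1 of both genotypes, *Zfp719* was at 0.21, *Zfp503* at -0.04 and *Zfp516* at -0.08. After correction for GC content, *Zfp563* was at 0.12, *Zfp719* at 0.29, *Zfp932* at 0.15, *Zfp960* at 0.25, *Zfp597* at 0.044, *Zfp654* at 0.013 and *Zfp516* at -0.024. With 1 library left out, the log2 differences ran from -0.15 to 0.35 for *Zfp503*, from -0.21 to 0.30 for *Zfp516*, from -0.77 to 0.0044 for *Zfp563*, from -0.9967 to 0.23 for *Zfp597*, from -1.86 to 0.077 for *Zfp654*, from -0.43 to 0.13 for *Zfp689*, from -0.9968 to 0.86 for *Zfp719*, from -0.37 to 0.27 for *Zfp830*, from -1.56 to 0.47 for *Zfp932* and from -1.01 to 0.38 for *Zfp960*. The cause of these changes was not tested. No paired analysis was possible because pool numbers could not be attached to the recovered libraries and the labels of KO and WT share only the number 2. The unresolved values have no test.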
